A study of Homo sapiens with 30 samples.

Results

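The genes described here encode the NF-kB transcription factor subunits, proteins that its own activity induces and that feed back on it, and a kinase upstream of it. They are the subunit genes NFKB1, NFKB2, REL, RELA and RELB, the IkB genes NFKBIA and NFKBIE, the ubiquitin-system genes TNFAIP3 and BIRC3, and the receptor-proximal kinase gene IRAK2. These 10 genes were taken by name, with earlier results of these data known. Ensembl identifiers matched them in both count tables, out of 38526 genes in the first experiment and 36291 in the retransplantation. All 10 passed the filter on low counts in every fit. They were measured by RNA sequencing in subclones 13 and 2 of MDA-MB-231, a human triple-negative breast cancer cell line, each marked with a LeGO lentiviral barcode. Cells of each subclone were sorted from lung metastases, liver metastases and primary tumours of NSG mice (NOD-SCID-IL2Rγc−/−), which lack T, B and NK cells, with 3 mice per group. In a second experiment subclone 2 was retransplanted, with lung and liver samples from 3 further mice, numbered 4 to 6. The labels do not say whether the organ there is the one the cells came from or the one they grew in. Each subclone is 1 clone, so a difference between them is one between 2 clones. In bulk samples like these, a change in every cell and a change in the share of cells that express a gene cannot be told apart.

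The 18 samples of the first experiment held 11.8 M to 82.2 M counts and the 6 retransplantation samples held 23.4 M to 32.3 M. In the first experiment each mouse was sequenced in its own run, except that the subclone 13 samples of mouse 1 were split over 3 runs and are summed here, so mouse and run cannot be told apart for the other samples. The 5 genes known to be abundant in MDA-MB-231 summed to 4531 to 13947 CPM (counts scaled by TMM to a common library total), and the 5 genes known to be low or absent to 12.9 to 63.9 CPM, mostly from EPCAM, with the estrogen receptor gene ESR1 at no more than 1.84 CPM. The hepatocyte markers, 6 or 7 of 8 of which were in the tables, summed to 16.6 to 239 CPM, mostly from SERPINA1, while ALB reached at most 0.81 CPM. The 5 fibroblast markers summed to 38.4 to 68.9 CPM in lung metastases, 33.0 to 87.5 CPM in liver metastases and 63.0 to 156 CPM in tumours of subclone 13, and to 28.2 to 97.8, 18.9 to 40.8 and 60.9 to 139 CPM in the same organs of subclone 2. The leukocyte gene CD14 was higher in metastases than in tumours without overlap, at 3.65 to 10.1 CPM in lung metastases and 6.27 to 10.1 CPM in liver metastases, against 0.819 to 1.51 CPM in tumours of subclone 13. In the same order of organs it was at 1.90 to 4.91, 1.62 to 13.95 and 0 to 1.45 CPM in subclone 2. Another leukocyte gene, CSF1R, went the other way in subclone 13 lung metastases, at 2.33 to 7.88 CPM against 11.2 to 13.3 CPM in tumours. CSF1R overlapped between subclone 13 liver metastases and tumours, and between the metastases and tumours of subclone 2. Over all 8 leukocyte markers, 7 of them in the table, the sums were 134 to 297, 250 to 410 and 214 to 305 CPM in subclone 13 and 56.8 to 127, 75.1 to 248 and 60.7 to 109 CPM in subclone 2, mostly from LAPTM5. The endothelial gene PECAM1 was at 26.7 to 30.4 CPM in subclone 2 liver metastases, against 12.7 to 14.6 CPM in its tumours. CDH5, VWF, KDR and TIE1 overlapped between these groups, with none above 2.23 CPM. The 5 endothelial markers summed to 28.5 to 31.3 CPM in those liver metastases and 14.6 to 16.7 CPM in those tumours. In subclone 13 PECAM1 overlapped, at 13.3 to 42.4 CPM in liver metastases and 13.5 to 19.8 CPM in tumours. The share of counts from the 13 mitochondrial protein genes was 8.43 to 9.71% in lung metastases, 3.10 to 4.85% in liver metastases and 2.84 to 3.95% in tumours of the first experiment. In the retransplantation it was 5.17 to 9.90% in lung and 5.62 to 7.01% in liver. The part of this share, and of these markers, in the differences between organs was not tested. Host cells are of mouse and the reads were counted on the human genome. These markers thus do not measure host cells directly.

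NF-kB proteins are dimers that IkB proteins hold in the cytoplasm. Receptors for TNF, IL-1 and Toll-like ligands activate the IkB kinases, IkB is degraded and the dimers enter the nucleus. Among the genes they switch on are those of IkBα (NFKBIA), IkBε (NFKBIE), the ubiquitin-editing enzyme A20 (TNFAIP3) and the ubiquitin ligase cIAP2 (BIRC3), which feed back on the pathway, as well as several subunit genes. MDA-MB-231 is known for NF-kB activity in culture without an added stimulus.

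Many of these genes carry a DNA element that NF-kB dimers bind close to their start. RefSeq promoters (GRCh38.p14) were held for 8 of the 10 genes, all but RELB and NFKBIE. The 250 bases before each start were searched on both strands for the letters GGG, then NNN, then TTCC, where N is any base, which the reverse strand reads as GGAA, NNN and CCC. At least 1 match was found in 6 of the 8 genes, namely NFKB1, NFKB2, REL, NFKBIA, TNFAIP3 and BIRC3. The same pattern occurred in 6.87% of 27305 genes with a promoter of that length, and in 5.67% of 35116 promoters. The windows below are those of the genes on which the organ comparisons turn, each read 5′ to 3′ on the strand of its gene, with matches in capitals. IRAK2 is shown beside them because its window held no match, which says only that these letters are not in these 250 bases.
NFKB1, chr4:102501109-102501358, plus strand: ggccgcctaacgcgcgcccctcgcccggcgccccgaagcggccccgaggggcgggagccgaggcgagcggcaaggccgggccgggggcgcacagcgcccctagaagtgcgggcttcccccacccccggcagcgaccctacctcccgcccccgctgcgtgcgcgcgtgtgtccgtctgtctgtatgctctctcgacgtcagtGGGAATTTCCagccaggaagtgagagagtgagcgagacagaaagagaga
NFKBIA, chr14:35404750-35404999, minus strand: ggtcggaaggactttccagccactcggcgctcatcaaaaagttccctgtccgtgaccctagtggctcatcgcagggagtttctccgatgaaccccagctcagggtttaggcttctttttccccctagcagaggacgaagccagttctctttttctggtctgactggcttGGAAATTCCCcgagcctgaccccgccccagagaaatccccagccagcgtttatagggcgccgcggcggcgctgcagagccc
TNFAIP3, chr6:137867009-137867258, plus strand: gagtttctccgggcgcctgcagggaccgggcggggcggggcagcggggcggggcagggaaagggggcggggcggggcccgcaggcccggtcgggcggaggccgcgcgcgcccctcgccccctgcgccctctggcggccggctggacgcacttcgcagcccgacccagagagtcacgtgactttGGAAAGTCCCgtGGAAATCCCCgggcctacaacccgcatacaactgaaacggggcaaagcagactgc
BIRC3, chr11:102317234-102317483, plus strand: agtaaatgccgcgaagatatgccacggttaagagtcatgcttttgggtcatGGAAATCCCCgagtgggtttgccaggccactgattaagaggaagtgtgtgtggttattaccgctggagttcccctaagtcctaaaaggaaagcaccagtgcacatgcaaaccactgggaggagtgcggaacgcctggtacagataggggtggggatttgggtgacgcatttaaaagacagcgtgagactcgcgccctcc
IRAK2, chr3:10164669-10164918, plus strand: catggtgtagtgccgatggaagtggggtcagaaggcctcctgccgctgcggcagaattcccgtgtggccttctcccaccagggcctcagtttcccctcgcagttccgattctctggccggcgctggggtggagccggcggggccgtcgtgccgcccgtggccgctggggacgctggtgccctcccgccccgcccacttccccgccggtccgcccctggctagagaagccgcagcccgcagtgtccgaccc

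NFKB1 carried its match at bases −49 to −40 from the first of its 2 listed starts, and the window of the other start held none. The NFKBIA match lay at −81 to −72. TNFAIP3 held a pair of matches, at −67 to −58 and at −55 to −46. The BIRC3 match lay farther upstream, at −199 to −190. In REL the matches on both strands overlap and cover bases −47 to −37. NFKB2 has matches before 2 of its 3 listed starts. The windows of RELA held none.

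**Figure D1:**
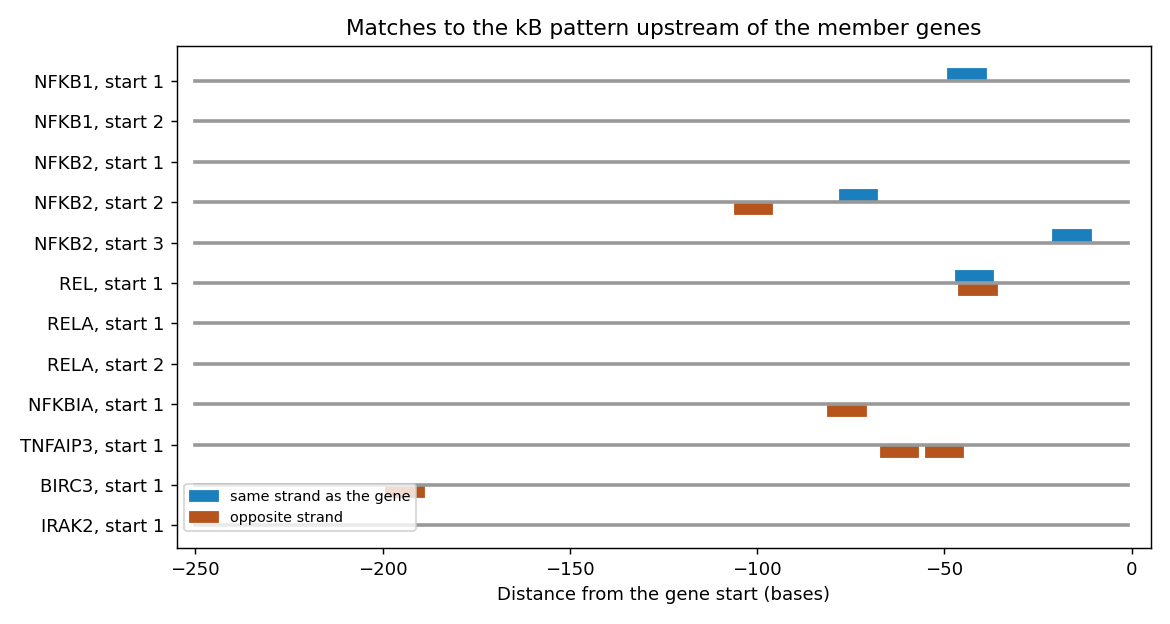
Matches to the kB pattern in the 250 bases before each RefSeq start of 8 genes; the x axis is the distance from the start in bases, blue boxes lie on the strand of the gene and orange boxes on the opposite strand. The matches of NFKB1, REL, NFKBIA and TNFAIP3 lie within 81 bases of the start, and the BIRC3 match lies at −199 to −190.

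NFKBIA was the most abundant of the 10 genes per length and REL the least in all 8 groups. Per kilobase of exon (GENCODE v29, all transcripts merged), NFKBIA averaged 462 CPM per kb in subclone 13 lung metastases, 213 in liver metastases and 333 in tumours. REL, the subunit known mainly from lymphocytes, averaged 0.688 to 1.23 CPM per kb over the groups. REL shares 43.3% of its exon bases with a non-coding gene on the same strand, AC010733.2, so reads there may have been left uncounted and its level is uncertain.

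The order of the other genes depended on the organ. In subclone 13 liver metastases RELA averaged 23.1 CPM per kb and NFKB2 20.3, with overlapping ranges, and NFKB1 averaged 7.68. In subclone 13 tumours RELA averaged 25.9 and NFKB1 26.6, and these neighbours did not differ beyond their spread. TNFAIP3, NFKB2 and BIRC3 had higher averages in the tumours, of 49.2, 44.5 and 43.9 CPM per kb, but their ranges overlapped one another and those of RELA and NFKB1.

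**Figure D2:**
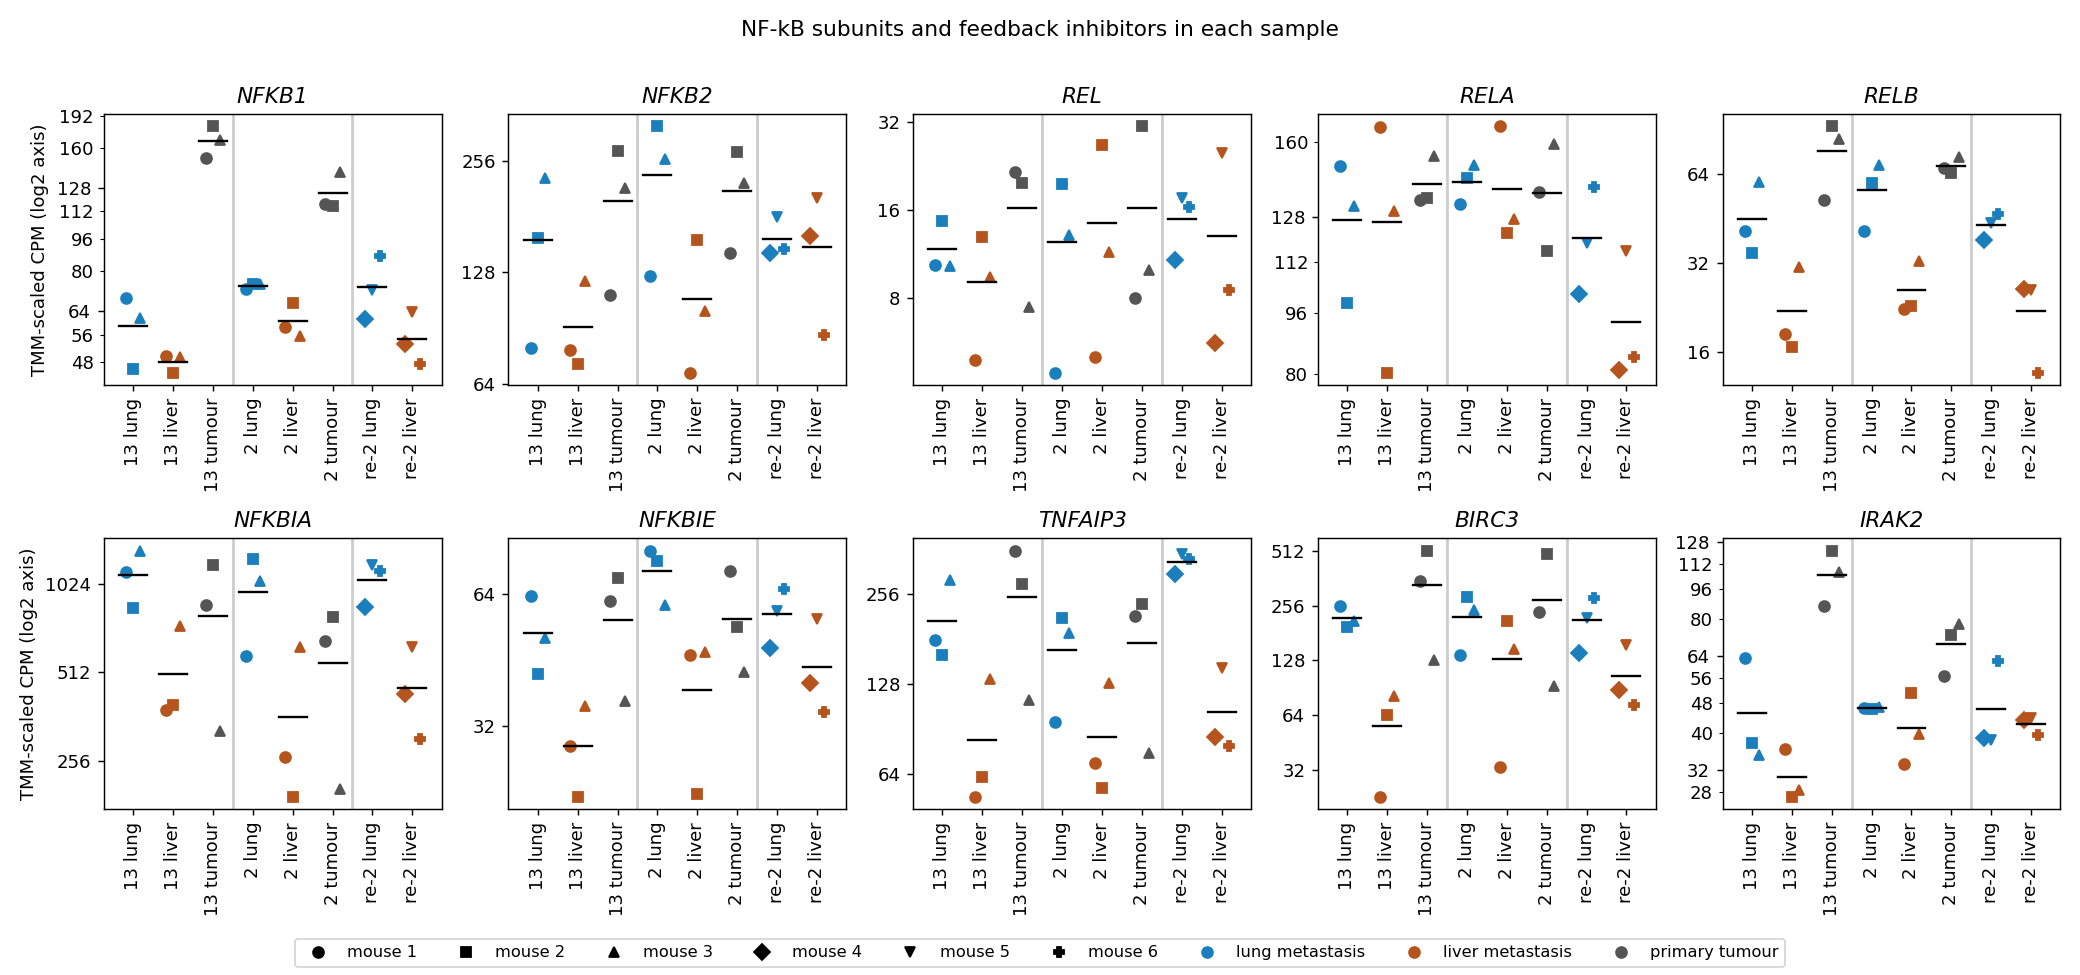
TMM-scaled CPM of the 10 genes in each sample, on a log2 axis, by subclone (13 or 2; re-2 is the retransplantation of subclone 2) and organ; each symbol is a mouse and each line the group mean of 3 samples. NFKB1 and IRAK2 of both subclones lie lower in lung and liver metastases than in tumours without overlap, whereas NFKBIA, TNFAIP3 and BIRC3 spread widely in tumours, with mouse 3 lowest.

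NFKB1 encodes the precursor of the p50 subunit, which pairs with RELA in the classical dimer. It was lower in the metastases of both subclones than in their tumours. In subclone 13, NFKB1 had 69.0, 46.1 and 61.4 CPM in lung metastases of mice 1 to 3 and 49.6, 45.2 and 49.5 CPM in liver metastases, against 151, 181 and 167 CPM in tumours. In subclone 2 it had 72.2, 74.6 and 74.4 CPM in lung metastases and 58.4, 67.0 and 55.4 CPM in liver metastases, against 117, 115 and 140 CPM in tumours. All 12 metastases lay below all 6 tumours.

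The fall of NFKB1 in subclone 13 was −1.79 ± 0.19 in liver metastases over tumours (log2 fold change ± SE, adjusted p = 0.000248) and −1.5 ± 0.19 in lung metastases over tumours (adjusted p = 0.00115). Unless another fit is named, adjusted p-values are from edgeR's quasi-likelihood test with Benjamini-Hochberg adjustment over all 17418 genes tested in the first experiment. Called means under 0.05. By p-value NFKB1 ranked 2 of those genes in the liver comparison and 5 in the lung comparison. In subclone 2 it fell by 1.04 ± 0.19 on the log2 scale in liver metastases (edgeR adjusted p = 0.0217). In subclone 2 lung metastases the difference from tumours was −0.75 ± 0.19, which missed the threshold (edgeR adjusted p = 0.105) and passed it with the mouse as a block (adjusted p = 0.0200). The liver call of subclone 2 held in 2 of 9 fits that left out 1 sample or 1 mouse, with edgeR adjusted p from 0.0337 to 0.601. The subclone 13 calls were lost without mouse 3 in liver (adjusted p = 0.0916), and without mouse 2 (0.279) or mouse 3 (0.186) in lung.

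The fitted change of NFKB1 was more negative in subclone 13 than in subclone 2 in both organs, but neither difference passed the test. The difference of the liver-over-tumour changes was −0.75 ± 0.26 (subclone 13 minus subclone 2, edgeR unadjusted p = 0.0111, adjusted p = 1). That of the lung-over-tumour changes was −0.75 ± 0.26 (edgeR unadjusted p = 0.0112, adjusted p = 1). In tumours alone, NFKB1 was at 151 to 181 CPM in subclone 13 and at 115 to 140 CPM in subclone 2, without overlap, a log2 difference of 0.42 ± 0.19 that was not called (edgeR adjusted p = 1).

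IRAK2 encodes a kinase that carries signals from IL-1 and Toll-like receptors and is thus upstream of NF-kB. Its pattern over the samples was close to that of NFKB1. In subclone 13, IRAK2 had 63.2, 37.7 and 35.1 CPM in lung metastases and 36.5, 27.2 and 28.4 CPM in liver metastases, against 86.6, 122 and 107 CPM in tumours. The subclone 2 samples had 46.6, 46.5 and 47.1 CPM in lung metastases and 33.3, 51.1 and 39.9 CPM in liver metastases, against 56.7, 72.6 and 77.6 CPM in tumours. Within each subclone the metastases and tumours did not overlap.

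IRAK2 fell in subclone 13 by 1.77 ± 0.25 (log2) in liver metastases (edgeR adjusted p = 0.00316) and by 1.21 ± 0.25 in lung metastases (edgeR adjusted p = 0.0386). The lung call held in 2 of 9 fits that left out a sample or a mouse (adjusted p from 0.00809 to 1). The liver call was lost without mouse 2 (adjusted p = 0.337) or mouse 3 (0.223). In subclone 2 the values were −0.73 ± 0.25 in liver and −0.56 ± 0.25 in lung, and neither was called (edgeR adjusted p = 0.378 and 0.478). The difference between subclones in the liver-over-tumour change was −1.04 ± 0.35 and was not called (edgeR unadjusted p = 0.00818, adjusted p = 1).

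RELB encodes the partner of p52 in the non-canonical dimer, and NFKB2 encodes the precursor of p52. RELB was low in liver metastases and took a middle level in lung. In subclone 13, RELB had 40.8, 34.5 and 60.0 CPM in lung metastases and 18.4, 16.6 and 31.0 CPM in liver metastases, against 52.2, 92.4 and 84.0 CPM in tumours. The RELB levels of subclone 2 were 41.0, 59.5 and 68.6 CPM in lung metastases and 22.4, 22.9 and 32.6 CPM in liver metastases, against 66.9, 64.5 and 72.6 CPM in tumours. Liver stood apart from both other organs in each subclone, while lung overlapped with tumour.

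RELB fell in subclone 13 liver metastases by 1.79 ± 0.30 on the log2 scale against tumours (edgeR adjusted p = 0.00866). This call was lost without mouse 2 (adjusted p = 0.736), without mouse 3 (0.0916), and without the liver sample of mouse 1 (0.0757) or of mouse 2 (0.0781). In subclone 2 the same comparison gave −1.39 ± 0.30, just short of a call (edgeR adjusted p = 0.0599), and was called with the mouse as a block (adjusted p = 0.000918). In lung metastases over tumours RELB gave −0.76 ± 0.30 in subclone 13 and −0.27 ± 0.29 in subclone 2, not called in either (edgeR adjusted p = 0.452 and 0.875).

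NFKB2 varied widely between mice as well as between organs. It had 80.0, 159 and 230 CPM in subclone 13 lung metastases and 79.2, 72.4 and 121 CPM in liver metastases, against 111, 271 and 216 CPM in tumours. Subclone 2 had 126, 316 and 259 CPM in lung metastases and 68.7, 156 and 101 CPM in liver metastases, against 144, 271 and 223 CPM in tumours. Mouse 1 was lowest in the lung and tumour groups of both subclones. The liver-over-tumour values of −1.13 ± 0.43 in subclone 13 and −0.97 ± 0.43 in subclone 2 were not called (edgeR adjusted p = 0.549 and 0.692). With the mouse as a block both were called (adjusted p = 0.0401 and 0.0462).

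RELA, the main activating subunit, differed little between organs. Its 18 samples in the first experiment spanned 80.3 to 168 CPM, with group means of 127 CPM in subclone 13 lung metastases, 126 CPM in liver metastases and 141 CPM in tumours. REL spanned 4.43 to 30.8 CPM. Neither gene was called in any comparison by edgeR without the block.

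The 10 genes were chosen with earlier results of these data known. The shares of all genes given here and below therefore describe them and are not a test. Over liver metastases and tumours of subclone 13, 3 of the 10 genes were called lower, against 0.293% of all genes, and all 10 had a fitted value below 0, against 47.9% of all genes. The median of the 10 genes was −1.36 there, against 0.02 for all genes. In 5 of 10, every liver metastasis lay below every tumour, against 7.97% of all genes. In subclone 2, 1 of 10 was called lower in liver metastases, against 0.201% of all genes, and 3 of 10 did not overlap, against 5.1%. The median was −0.85, against 0.05 for all genes. In lung metastases over tumours, 2 of 10 were called lower in subclone 13, against 0.27% of all genes, and 2 of 10 lay wholly below, against 9.91%. In subclone 2 lung metastases none was called lower (0.253% of all genes) and 2 of 10 lay wholly below, against 7.49%. At an unadjusted p under 0.05, edgeR put 2 of 10 lower there, against 5.23% of all genes, and DESeq2 called 1 after adjustment, against 2.08%. With the mouse as a block, the genes called lower were 5 of 10 in subclone 13 liver metastases (1.4% of all genes) and 3 of 10 in subclone 2 liver metastases (1.18%). In lung metastases they were 2 of 10 in subclone 13 (2.12%) and 1 of 10 in subclone 2 (1.83%).

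**Figure D3:**
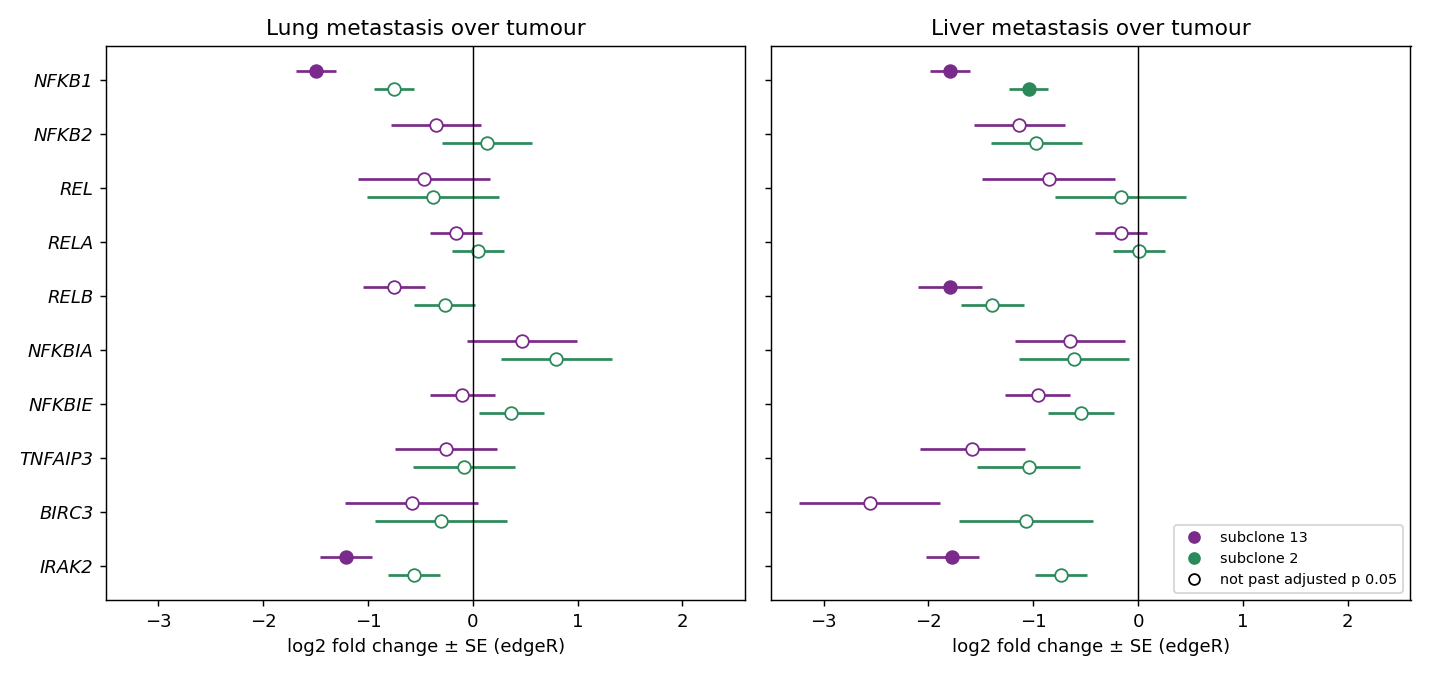
Log2 fold change ± SE of the 10 genes in lung metastases over tumours (left) and in liver metastases over tumours (right), for subclone 13 (purple) and subclone 2 (green); 3 samples per group, filled points are called by edgeR at adjusted p under 0.05. Called points are NFKB1 and IRAK2 of subclone 13 in lung, NFKB1, RELB and IRAK2 of subclone 13 in liver, and NFKB1 of subclone 2 in liver.

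The feedback genes NFKBIA, NFKBIE, TNFAIP3 and BIRC3 did not share the pattern of NFKB1. NFKBIA had 1121, 843 and 1325 CPM in subclone 13 lung metastases and 382, 397 and 734 CPM in liver metastases, against 868, 1182 and 324 CPM in tumours. Subclone 2 had 583, 1242 and 1042 CPM in lung metastases and 264, 193 and 623 CPM in liver metastases, against 654, 790 and 205 CPM in tumours. Lung and tumour ranges overlapped, and in both subclones the tumour of mouse 3 was the lowest tumour by more than the spread of the other pair.

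TNFAIP3 had 179, 160 and 284 CPM in subclone 13 lung metastases and 53.6, 62.4 and 133 CPM in liver metastases, against 356, 276 and 113 CPM in tumours. Its levels in subclone 2 were 95.1, 212 and 189 CPM in lung metastases and 69.3, 57.2 and 129 CPM in liver metastases, against 216, 236 and 74.9 CPM in tumours. Here too the mouse 3 tumours were the lowest, and the mouse 3 livers the highest of their groups.

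BIRC3 had 254, 196 and 210.1 CPM in subclone 13 lung metastases and 22.7, 63.8 and 81.7 CPM in liver metastases, against 348, 513 and 129 CPM in tumours. In subclone 2 it had 137, 286 and 242 CPM in lung metastases and 33.1, 210.3 and 148 CPM in liver metastases, against 236, 493 and 92.7 CPM in tumours. NFKBIE had 63.3, 42.0 and 50.9 CPM in subclone 13 lung metastases and 28.7, 22.0 and 35.5 CPM in liver metastases, against 61.7, 69.6 and 36.4 CPM in tumours. In subclone 2 NFKBIE had 80.5, 76.2 and 60.6 CPM in lung metastases and 46.4, 22.4 and 47.1 CPM in liver metastases, against 72.4, 53.9 and 42.5 CPM in tumours. In subclone 13, the liver metastases lay below the tumours for both genes, and in subclone 2 they overlapped.

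None of NFKBIA, NFKBIE, TNFAIP3 and BIRC3 was called in liver metastases over tumours. The largest value was that of BIRC3 in subclone 13, −2.56 ± 0.67 (edgeR adjusted p = 0.151), which was called with the mouse as a block (adjusted p = 0.0193). TNFAIP3 gave −1.58 ± 0.50 in subclone 13 and −1.04 ± 0.49 in subclone 2 (edgeR adjusted p = 0.329 and 0.745). NFKBIA gave −0.65 ± 0.52 in subclone 13 and −0.61 ± 0.52 in subclone 2 (edgeR adjusted p = 1 in both). These values depended on which mice were fitted. Without mouse 3 the fits gave −1.42 for NFKBIA, −2.46 for TNFAIP3 and −3.35 for BIRC3 in subclone 13, and −1.71, −1.88 and −1.61 for the same genes in subclone 2, still not called (edgeR adjusted p from 0.0916 to 1). Other omissions weakened them. Without mouse 2 NFKBIA gave −0.12 in subclone 13 and 0.0384 in subclone 2. TNFAIP3 gave −0.99 in subclone 13 without mouse 1 and −0.56 in subclone 2 without mouse 2. Without the mouse 2 tumour BIRC3 gave −2.10 in subclone 13 and −0.32 in subclone 2.

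The mouse 3 tumours were the lowest tumours of their subclone for all 4 feedback genes, although in subclone 2 the gap for NFKBIE and BIRC3 was within the spread of the other pair. For NFKB1, RELB and IRAK2 they were not the lowest, at 167, 84.0 and 107 CPM in subclone 13 and at 140, 72.6 and 77.6 CPM in subclone 2. Mouse 3 was sequenced in the third run. The mouse 1 tumour of subclone 13, which was sequenced in all 3 runs, had 824, 817 and 825 CPM of NFKBIA in runs 1, 2 and 3, scaled over single libraries. The highest run was 1.01 times the lowest there, and at most 1.05 times for NFKBIA in the other organs. Over all 3 organs this ratio reached 1.19 for TNFAIP3, 1.10 for NFKBIE and 1.38 for BIRC3, and in the tumour it was 1.06, 1.09 and 1.14 for these genes. These repeated libraries cover only subclone 13 of mouse 1. For mouse 3, mouse and run cannot be told apart, and the part of either was not tested.

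The ratio of NFKBIA to NFKB1 counts within each sample separated lung from tumour. It needs no scaling between libraries and was chosen after the values were seen, so it is given with no test. There were 16.3, 18.3 and 21.6 NFKBIA counts per NFKB1 count in subclone 13 lung metastases and 7.71, 8.79 and 14.8 in liver metastases, against 5.73, 6.54 and 1.93 in tumours. In subclone 2 there were 8.07, 16.6 and 14 in lung metastases and 4.51, 2.88 and 11.2 in liver metastases, against 5.59, 6.84 and 1.47 in tumours. All 6 lung metastases were above all 6 tumours. Liver metastases of subclone 13 were also above its tumours, whereas those of subclone 2 overlapped with them.

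**Figure D4:**
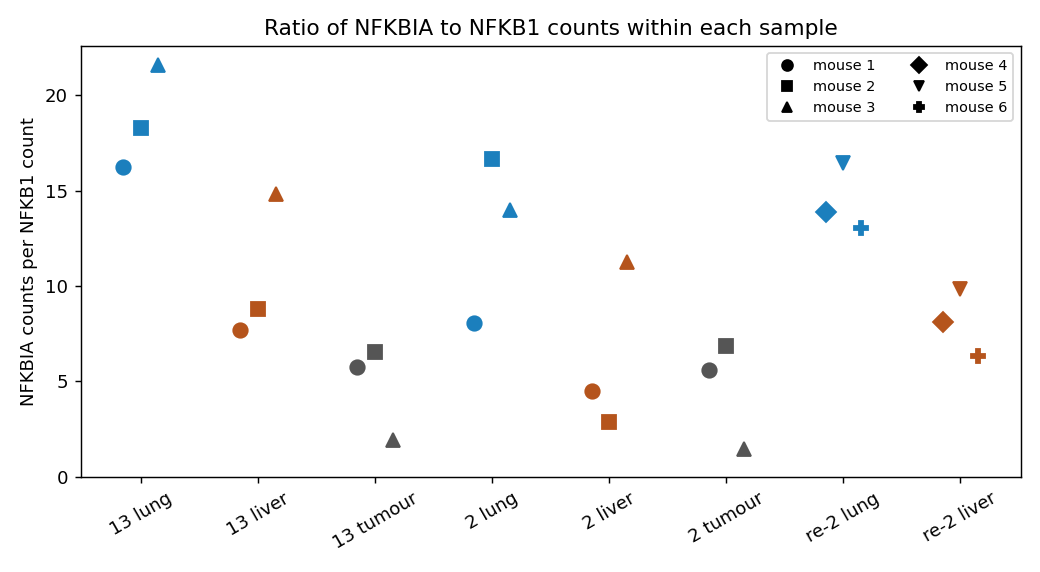
NFKBIA counts per NFKB1 count in each sample, by subclone and organ (re-2 is the retransplantation of subclone 2); each symbol is a mouse, and the y axis starts at 0. Lung metastases of the first experiment lie at 8.07 to 21.6 and tumours at 1.47 to 6.84.

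NFKB1, RELB and the feedback genes NFKBIA, NFKBIE, TNFAIP3 and BIRC3 had higher values in the lung metastasis than in the liver metastasis of each mouse, although the test did not call them. Lung was higher in every mouse for 9 of 10 genes in subclone 13, against 21.5% of all genes, and for 7 of 10 in subclone 2, against 19.5%. Every lung sample lay above every liver sample for RELB, NFKBIA, NFKBIE, TNFAIP3 and BIRC3 in subclone 13, which is 5 of 10 against 5.23% of all genes. In subclone 2 this held for NFKB1, RELB and NFKBIE, 3 of 10 against 5.92%. The medians of the 10 genes were 0.82 in subclone 13 and 0.83 in subclone 2, against 0.01 for all genes in both.

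RELB gave 1.04 ± 0.30 in subclone 13 and 1.12 ± 0.30 in subclone 2 in lung over liver (log2). NFKBIA gave 1.12 ± 0.53 in subclone 13 and 1.41 ± 0.53 in subclone 2, and NFKBIE gave 0.86 ± 0.31 in subclone 13 and 0.91 ± 0.31 in subclone 2. In subclone 13 TNFAIP3 gave 1.33 ± 0.50, BIRC3 1.98 ± 0.66 and IRAK2 0.56 ± 0.25. No gene of the 10 was called in either subclone (edgeR adjusted p from 0.211 for RELB in subclone 2 upward), and edgeR called 0% of all genes in subclone 13 and 0.023% in subclone 2. At an unadjusted p under 0.05, 6 of 10 were higher in subclone 13, against 2.04% of all genes, and 4 of 10 in subclone 2, against 4.48%. DESeq2 called 0 of 10 in subclone 13 (0.304% of all genes) and 1 of 10 in subclone 2 (1.45%). With the mouse as a block, RELB was called in subclone 13 (adjusted p = 0.0381, with 0.189% of all genes called higher) and RELB and NFKB2 in subclone 2 (adjusted p = 0.00815 and 0.0244, with 1.63% called higher). All 3 comparisons within a subclone share samples, so the lung, liver and tumour contrasts are not separate evidence.

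The retransplantation of subclone 2 used other mice and a single sequencing run, and gave the same order of lung and liver for 3 of these genes without overlap. TNFAIP3 had 297, 347 and 334 CPM in lung samples of mice 4 to 6, against 85.0, 144 and 79.2 CPM in liver samples. NFKBIA had 849, 1185 and 1132 CPM in lung samples, against 432, 625 and 302 CPM in liver samples. RELB had 38.2, 43.6 and 46.9 CPM in lung samples, against 26.2, 26 and 13.6 CPM in liver samples. RELB was thus the gene that separated lung from liver without overlap in both subclones of the first experiment and in the retransplantation. The 2 subclones of the first experiment share their mice, and the organ labels of the retransplantation may mean origin or growth.

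These 3 of 10 compare with 9.98% of all genes whose lung samples all lay above the liver samples, and 7 of 10 were higher in the lung of every mouse, against 20.2%. The fits gave 1.66 ± 0.25 for TNFAIP3, 1.22 ± 0.29 for NFKBIA, 0.97 ± 0.26 for RELB and 1.02 ± 0.34 for BIRC3 (log2). None was called by edgeR over 17549 genes (adjusted p = 0.105, 0.198, 0.221 and 0.297), and neither was any other gene (0%). At an unadjusted p under 0.05, those 4 genes were higher, against 6.62% of all genes, and DESeq2 called 3 of 10, against 2.26%. With the mouse as a block edgeR called TNFAIP3 (adjusted p = 0.0244, with 0.393% of all genes called higher).

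Lung and liver samples of the retransplantation overlapped for the other 7 genes. BIRC3 had 140.5, 219 and 281 CPM in lung samples, against 88.1, 155 and 73.0 CPM in liver samples, higher in lung in each mouse. NFKB1 had 61.2, 72.0 and 86.9 CPM in lung samples, against 53.1, 63.5 and 47.6 CPM in liver samples, and IRAK2 had 38.8, 38.5 and 62.1 CPM against 43.4, 43.9 and 39.6 CPM. NFKB2 had 144, 181 and 148 CPM in lung samples, against 161, 202 and 86.8 CPM in liver samples, higher in lung in 1 of 3 mice. The lung-over-liver change of NFKB2 in the retransplantation minus that in the first experiment was −0.999 ± 0.593. It was not called (edgeR adjusted p = 0.878 over the 19721 genes of the fit of both experiments), and none of the 10 genes differed between the experiments by this test. There were 13.9, 16.5 and 13.0 NFKBIA counts per NFKB1 count in lung samples, against 8.13, 9.85 and 6.36 in liver samples, without overlap, whereas lung and liver of subclone 2 overlapped in the first experiment. The leukocyte gene PTPRC was at 1.12 to 2.99 CPM in these lung samples, against 0.297 to 0.334 CPM in the liver samples, and the alveolar gene SFTPC was at 0.876 to 3.49 CPM in the lung samples. The fibroblast gene COL3A1 was at 8.20 to 18.01 CPM in the lung samples, against 0.395 to 0.806 CPM in the liver samples. COL1A1, PDGFRB, DCN and LUM overlapped between these lung and liver samples. The 5 fibroblast markers summed to 45.9 to 88.3 CPM in lung and 24.2 to 63.4 CPM in liver. Summed over all 8 leukocyte markers, however, the lung samples held 76.5 to 159 CPM and the liver samples 182 to 297 CPM, mostly from LAPTM5, and the 5 lung epithelial markers in the table held 6.95 to 9.15 CPM in lung and 6.19 to 8.72 CPM in liver. The part of such cells in the lung values was not tested, and these counts of human genes do not measure mouse cells directly.

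**Figure D5:**
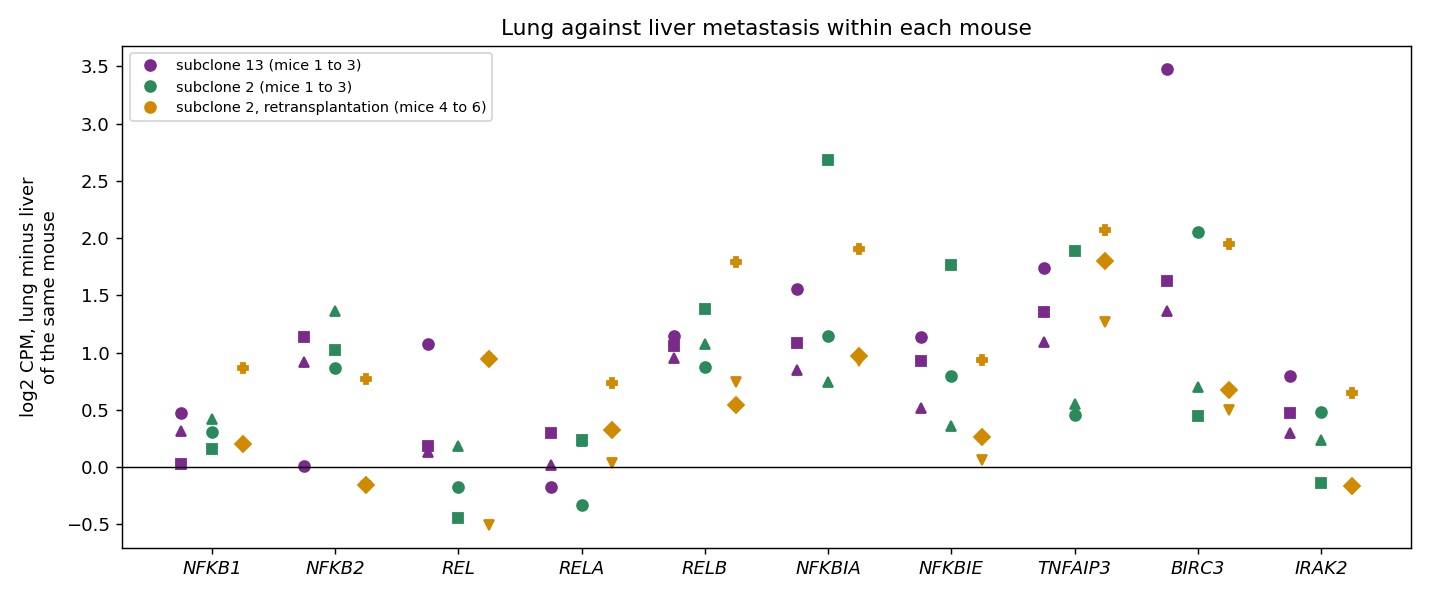
Log2 CPM of lung minus liver within each mouse for the 10 genes, in subclone 13 (purple, mice 1 to 3), subclone 2 (green, mice 1 to 3) and the retransplantation of subclone 2 (orange, mice 4 to 6); symbols mark mice as in the plot of the genes by sample. NFKB1, RELB, NFKBIA, NFKBIE, TNFAIP3 and BIRC3 lie above 0 in every mouse, NFKB1 at 0.03 to 0.87, and the other 4 genes lie below 0 in at least 1 mouse.

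Correlations between the genes were computed with each value centred on its mouse over the 18 samples of the first experiment, which share mice and runs. NFKB1 and IRAK2 had a Pearson r of 0.95, and NFKB2 and RELB of 0.88. RELB correlated about equally with NFKB1 (0.84) and IRAK2 (0.80) and with NFKBIE (0.80), BIRC3 (0.78) and TNFAIP3 (0.72). NFKBIA and TNFAIP3 had an r of 0.85, as had TNFAIP3 and BIRC3. NFKB1 and NFKBIA had an r of 0.02. Among 11014 genes at a mean of 5 CPM or more, the 5 most like NFKB1 were NOCT (r = 0.96), ZC3HAV1, TRIM26, ZNFX1 and IFIT3 (r = 0.91). For NFKBIA they were CXCL2 (r = 0.89), BCL3, IRF1, IER3 and CSF3 (r = 0.86), and for RELB they were BCOR (r = 0.93), WWC1, TSPYL2, EN2 and EDN1 (r = 0.91).

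Genes elsewhere in the pathway are given for liver metastases over tumours. Their lists were also chosen with earlier results of these data known, so the shares are not a test. Of 21 receptor and adaptor genes, RIPK1, the kinase that links TNF receptors to the IkB kinases, fell in subclone 13 liver metastases over tumours (−1.13 ± 0.23, edgeR adjusted p = 0.0387), and the other 20 did not pass. Their median was 0.01 there, against 0.02 for all genes. None of 12 kinase genes, 4 other IkB-family genes and 13 other negative regulators passed in that comparison, with medians of 0.00, −0.92 and −0.24. Of 21 target genes tested, CD83, a surface protein of activated immune cells, fell (−2.02 ± 0.39, edgeR adjusted p = 0.0232) and 20 did not pass, against 0.293% of all genes called lower. Of the 21, 19 were below 0, against 47.9% of all genes, with a median of −1.47. With the mouse as a block, edgeR called lower in subclone 13 liver metastases 3 of the receptor and adaptor genes, 2 of the kinase genes (MAP3K8, adjusted p = 0.00117, and MAP3K14, adjusted p = 0.0111), 1 IkB-family gene (NFKBIZ, adjusted p = 0.0173), 1 other negative regulator (TNIP1, adjusted p = 0.04) and 4 target genes, against 1.4% of all genes, and it called 1 target gene, BCL2L1, higher (adjusted p = 0.0022), against 0.431%. In subclone 2 liver metastases over tumours none of the 21 target genes passed, and their median was −1.34. With the mouse as a block 2 of them were called lower there, against 1.18% of all genes, and 1 higher, against 0.494%.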

How the data were processed

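RNA from sorted cells was made into TruSeq libraries that do not keep strand. The authors deposited raw read counts per gene in 2 tables, and per the submitters' processing notes they used bcl2fastq 2.15.0.4, cutadapt, STAR and featureCounts on GRCh38. The 9 subclone 13 libraries of mouse 1 (6 labelled technical replicates) were summed to 1 sample per organ. Counts were fitted with edgeR 4.0.16 (R 4.3.3) by quasi-likelihood with TMM scaling and filterByExpr, a term for each group of the table, and Benjamini-Hochberg adjustment over all genes tested (17418, 17549 and 19721 in the fit of both experiments). The SE was taken as |log2 fold change| over root F. The alternatives were the mouse as a block, DESeq2 1.42.0, RLE scaling, no filter, single libraries or no technical replicates for mouse 1, only the groups compared, and leaving out samples or mice. Samples of the same mouse deviated together in the first experiment (median r 0.44 over 45 pairs, against −0.30 over 90 pairs of different mice) and in the retransplantation (0.34, 3 pairs), and they come from the same animal, so the block pairs true partners. The labels give 3 mice per group, and intervals between mice also hold run effects. The fit was also run on simulated counts of independent samples, with no mouse effect and less spread than in the first experiment. That run therefore does not show how the fit performs on these data. The genes and pathway lists were chosen with earlier results of these data known. Genes were named by membership of these lists, and genes alike by the 5 highest Pearson r over mouse-centred log2(CPM + 1).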

Additional observations from a re-analysis of the deposited data

How the results depend on the processing

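Of the 40 log2 fold changes given for single genes, none changed direction under another tool, filter, scaling, block or choice of samples fitted; with 1 sample or mouse left out the exception was NFKBIA in subclone 2 liver metastases over tumours, which was 0.0384 without mouse 2 and ranged down to −1.71 without mouse 3. Counts of the 10 genes called moved as follows. The shares of all genes called in the same fits are given above for the block. They are also given for DESeq2, except in subclone 2 liver over tumour. For the other settings the shares are not given, so those counts do not show whether a change is particular to these genes. In subclone 2, lung over tumour gave 1 by DESeq2 and 1 with the mouse as a block, liver over tumour gave 2 by DESeq2, 3 with the block and 0 with only the compared groups fitted, and lung over liver gave 1 without the filter, 1 by DESeq2 and 2 with the block. In subclone 13, lung over tumour gave 1 with only the compared groups and 1 without the technical replicates, liver over tumour gave 6 without the filter and 5 with the block, and lung over liver gave 2 without the filter and 1 with the block. Subclone 13 over 2 in liver gave 1 without the filter, and the retransplantation gave 4 without the filter, 3 by DESeq2 and 1 with the block. Single calls were lost with only the compared groups fitted, for NFKB1 in subclone 2 liver over tumour (adjusted p = 0.353), RELB in subclone 13 liver over tumour (0.0828) and IRAK2 in subclone 13 lung over tumour (0.104). That of NFKB1 was also lost without the filter (0.0695) and that of IRAK2 without the technical replicates (0.0544). With a sample or mouse left out the counts ranged from 0 to 3 in subclone 13 liver over tumour, 0 to 2 in subclone 13 lung over tumour, 0 to 1 in subclone 2 liver over tumour and in the retransplantation, and were 0 in the others. The cause was not tested. The block changed no call of these 40 values beyond those given with it. The ranges that follow pool all alternatives that kept every sample, DESeq2 and the fit without the filter among them. Adjusted p in liver over tumour ran from 0.0462 to 0.999 for NFKB2 and 0.000918 to 0.188 for RELB in subclone 2. In subclone 13 it ran from 0.0238 to 0.641 for NFKB2 and 3.36e-12 to 0.178 for BIRC3. For NFKB1 in subclone 2 lung over tumour it ran from 0.00505 to 0.462. In lung over liver it ran from 0.0381 to 0.866 for RELB in subclone 13, from 0.00815 to 0.773 for RELB and 0.0244 to 0.831 for NFKB2 in subclone 2, and from 8.70e-07 to 0.102 for TNFAIP3 in the retransplantation. With 3 mice per group, absent calls do not show equal levels. REL, at 4.43 to 30.8 CPM in the first experiment, had the widest spread of the 10 genes relative to its mean in the subclone 2 groups there. In the subclone 13 groups other genes spread more widely.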
